A study of Oryza sativa Indica Group with 6 samples.

Results

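Expression of 7 genes that control panicle branching and the spikelet meristem in young rice panicles was compared between wild-type plants and the mutant *ssh1*. The genes were taken by locus ID and are *LAX1* (LOC_Os01g61480), *LAX2* (LOC_Os04g32510), *MOC1* (LOC_Os06g40780), *FZP* (LOC_Os07g47330), *APO1* (LOC_Os06g45460), *RFL/APO2* (LOC_Os04g51000), and *DEP1* (LOC_Os09g26999). They are 7 of the 55982 locus IDs measured, and all were listed in every sample. The wild type is YIL100, an introgression line carrying segments of wild rice (*Oryza rufipogon*) in the *indica* variety Teqing. The mutant, labelled SSH1-/-, is a single line found after EMS mutagenesis of YIL100, with a C-to-A change in the ninth intron of *SNB*, so that both genotypes share the same introgressions and other EMS changes may distinguish them. RNA was taken from whole 0- to 4-cm panicles, in 3 replicates per genotype with 5 plants pooled in each. The deposited values are FPKM, fragment counts scaled by transcript length and by the total of each library, so that levels of different genes can be set side by side.

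The rice panicle is built by meristems that first produce branches and then spikelets. *LAX1*, a bHLH transcription factor, *LAX2*, a nuclear protein that binds LAX1, and *MOC1*, a GRAS-family regulator, are required to form axillary meristems, from which branches, lateral spikelets, and tillers arise. *APO1*, an F-box protein, and *RFL/APO2*, the rice counterpart of LEAFY, keep the inflorescence meristem producing branches, and their proteins act together. *FZP*, an ERF-type transcription factor, ends branching by establishing spikelet identity, and *DEP1* encodes a γ-like subunit of a heterotrimeric G protein that is known for its effect on panicle density and branch number. *SNB*, the mutated gene, encodes an AP2-like factor that promotes the transition from the spikelet to the floral meristem.

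Of the 7 genes, *DEP1* and *RFL/APO2* were well expressed, and the other 5 were below 1 FPKM on average over the 6 samples. *DEP1* was lower in *ssh1* by a factor of about 2, with little spread. The means of *RFL/APO2*, *LAX1*, *MOC1*, *LAX2*, and *APO1* were also lower in *ssh1* and that of *FZP* was higher, but none of these 6 reached an adjusted p below 0.05. Genes were called when they changed at least 2-fold with an adjusted p below 0.001 (limma, a linear model per gene with variances moderated across genes, on log2(FPKM + 1) with Benjamini-Hochberg adjustment), and 0 of the 7 genes passed. *DEP1* and *RFL/APO2* were among the 18537 tested genes, of which 5.11% passed these thresholds, 1.92% being lower in *ssh1*. The other 5 came from a fit over the 30210 genes above 0 in a sample, of which 487 passed. For *MOC1*, *LAX2*, *APO1*, and *FZP* a 2-fold fall could not be reached on this scale, as described below. At an unadjusted p below 0.05 in limma, 2 of the 7 passed, *DEP1* and *LAX1*. The same limit was passed by 53.5% of the tested genes, and by 37.9% of the 30210 genes above 0 in a sample in the fit that held *LAX1*, so that the 2 of 7 do not exceed the background. At an adjusted p below 0.05 *DEP1* passed, where 28.0% of the tested genes were lower in *ssh1* and 17.0% higher. A call of *DEP1* at that limit is therefore not unusual among the genes of these panicles. In whole panicles, fewer meristem cells and less RNA per cell cannot be told apart. The panicles also covered a range of lengths, and a difference in their stage between the pools was not tested.

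**Figure D1:**
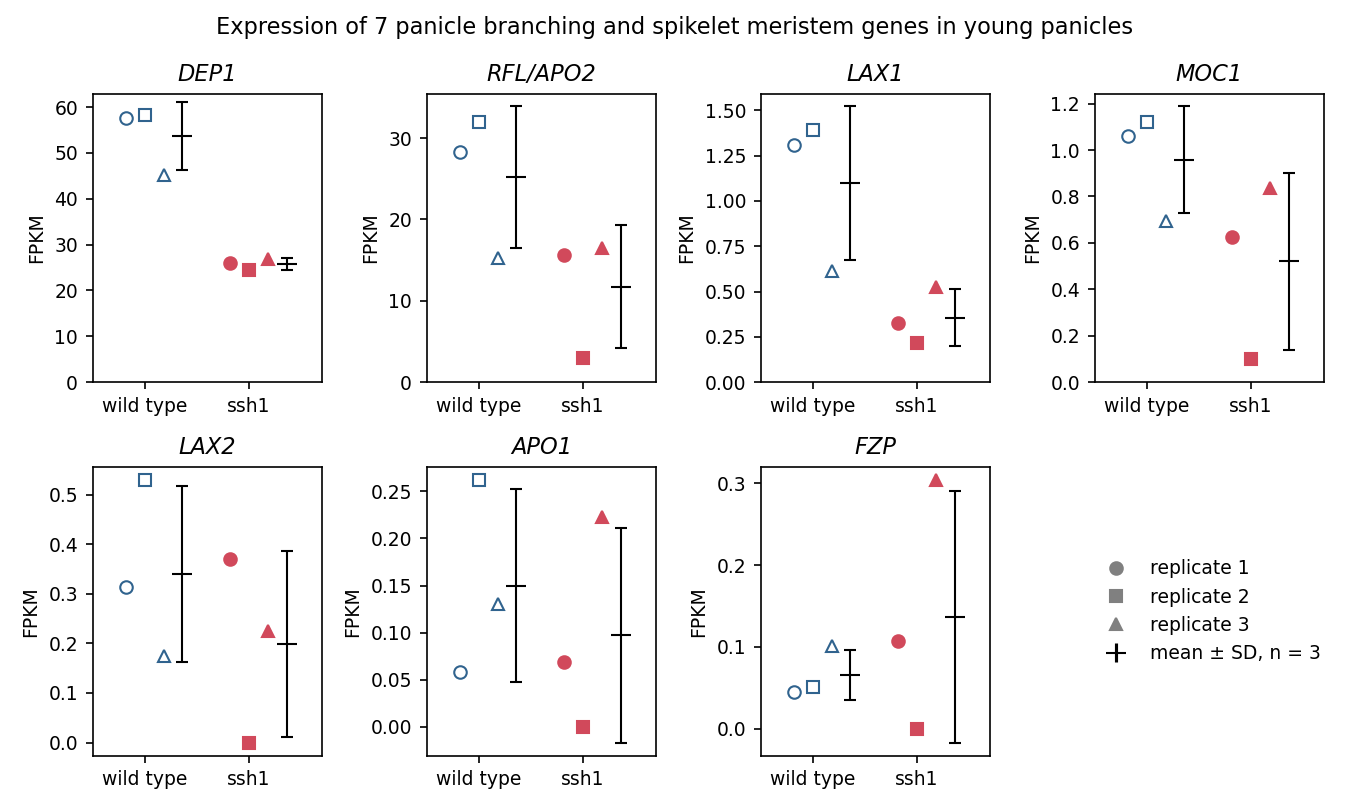
FPKM of the 7 genes (y axis, a separate linear scale for each gene) in the wild type (open symbols) and *ssh1* (filled symbols). Symbol shapes stand for replicates 1 to 3, and the dash with bars is the mean ± SD (n = 3). The *DEP1* values of *ssh1* lie between 24.5 and 26.9 FPKM, below all wild-type values, and *ssh1* replicate 2 (filled square) is the lowest of the 6 samples in each of the 7 panels.

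The libraries were compared before the genes. A gene covered by few fragments moves in steps of FPKM, and the size of these steps gave the relative depth of each library. Relative to replicate 1 of the wild type, depth on the log2 scale was between -0.24 (*ssh1* replicate 1) and 0.06 (*ssh1* replicate 3). The median log2 fold change over the tested genes was -0.14 (*ssh1* minus wild type), and median-of-ratios scaling brought it to -0.01. Among genes with an adjusted p below 0.05, 62.2% were lower in *ssh1* in the values as deposited and 47.0% after that scaling. *SNB* (LOC_Os07g13170) itself was at 18.6 ± 2.07 FPKM in the wild type and 8.09 ± 0.717 FPKM in *ssh1* (SD, n = 3 each), and all *ssh1* replicates were below all wild-type replicates. The paper reports that the mutation alters splicing of the *SNB* transcript. Its quantitative PCR gave similar levels in both genotypes upstream of the mutated intron, and lower levels in *ssh1* across that intron. A single FPKM per gene does not separate such parts of a transcript.

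*DEP1* was the most highly expressed of the 7 genes in both genotypes. The wild-type replicates were at 57.7, 58.2, and 45.1 FPKM, whereas *ssh1* had 26.0, 24.5, and 26.9 FPKM. All *ssh1* replicates were thus below all wild-type replicates, and the *ssh1* values were closer to each other (coefficient of variation 4.78%) than those of the wild type (13.9%). The means were 53.7 ± 7.44 and 25.8 ± 1.23 FPKM (SD, n = 3 each), a ratio of 0.48. *DEP1* ranked above 93.0% of the expressed genes in the wild type and above 83.7% in *ssh1*. The log2 fold change was -1.02 (standard error, SE = 0.11). The adjusted p of 0.00114 from limma narrowly missed 0.001, and the exact permutation test over samples gave p = 0.1 (two-sided), the smallest value that 3 against 3 allow. The change was between -1.14 and -0.96 on the log2 scale with a replicate left out. After median-of-ratios scaling it was -0.88 (limma adjusted p = 0.00149).

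*RFL/APO2* was expressed next to *DEP1* and varied more than *DEP1* in both genotypes. In the wild type, its replicates were at 28.3, 32.0, and 15.3 FPKM. In *ssh1*, they were at 15.6, 3.0, and 16.5 FPKM. Replicates 1 and 3 of *ssh1* were at the level of wild-type replicate 3, so that the genotypes overlap, and *ssh1* replicate 2 was far below all the others. The means were 25.2 ± 8.74 FPKM in the wild type and 11.7 ± 7.56 FPKM in *ssh1* (SD, n = 3 each). The log2 fold change of -1.25 exceeded that of *DEP1*, but it did not pass (SE = 0.62, limma adjusted p = 0.143), and the exact permutation test gave p = 0.3 (two-sided). Without *ssh1* replicate 2 the log2 fold change was -0.56 (limma adjusted p = 0.191), and without *ssh1* replicate 3 it was -1.62 (limma adjusted p = 0.0999).

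**Figure D2:**
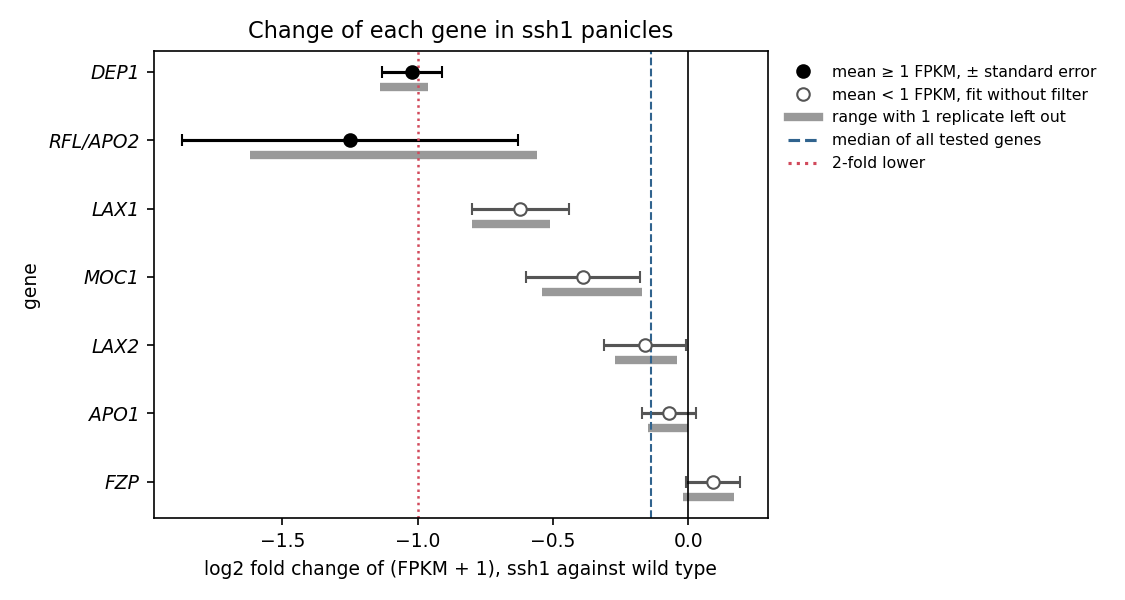
Log2 fold change of each gene in *ssh1* against the wild type, on log2(FPKM + 1) (x axis), with its standard error. Filled points are the 2 genes whose mean reached 1 FPKM, and open points the 5 below it, from a fit without the filter. Grey bars give the range with 1 replicate left out, from -1.62 to -0.56 for *RFL/APO2* and from -1.14 to -0.96 for *DEP1*. The dashed line marks the median of all tested genes at -0.14 and the dotted line a 2-fold decrease.

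The 5 genes below 1 FPKM were expressed so weakly that the number of fragments behind each value could be recovered. After correction for relative depth, the 6 values of each gene were multiples of a common step, with no value more than 0.027 of a fragment from a whole number. The numbers given are the smallest that fit, since a common multiple of them would give the same values. They could not be recovered for *RFL/APO2* and *DEP1*, whose values are too high. This calculation was added after the values had been seen, and its intervals (exact, 95%) cover counting error only, not the difference between pools of plants. With 1 FPKM added, a gene with a wild-type mean of log2(FPKM + 1) below 1 cannot fall 2-fold, even at 0 FPKM. This mean was 0.96 for *MOC1*, 0.41 for *LAX2*, 0.2 for *APO1*, 0.09 for *FZP*, and 1.05 for *LAX1*. A ratio of means or of fragments is therefore given as well for genes below 1 FPKM. Their tests come from a limma fit over all 30210 genes above 0 in a sample.

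*LAX1* had the lowest ratio of *ssh1* to wild type of the axillary meristem genes, but its 95% interval from fragments overlapped those of *MOC1* and *LAX2*. The wild-type replicates were at 1.31, 1.39, and 0.612 FPKM, from 19, 18, and 8 fragments. The *ssh1* replicates were at 0.325, 0.218, and 0.524 FPKM, from 4, 3, and 8 fragments. The genotypes did not overlap in FPKM, but wild-type replicate 3 and *ssh1* replicate 3 each held 8 fragments and were set apart by their relative depth of 0.899 and 1.04. *LAX1* and *DEP1* were the 2 of the 7 genes whose *ssh1* replicates were all below the wild type, which was also so for 27.4% of the 30210 expressed genes. The ratio of the mean FPKM was 0.323. From the 45 fragments of the wild type and the 15 of *ssh1*, the ratio was 0.328 (95% interval 0.17 to 0.599). In limma, *LAX1* had a log2 fold change of -0.62 (SE = 0.18) and an adjusted p of 0.0548, short of an adjusted p of 0.05, which 16.1% of the expressed genes passed as lower in *ssh1*. The adjusted p in limma was 0.0197 without wild-type replicate 3 and 0.0462 after rescaling to a common sum, and between 0.0548 and 0.156 in the other alternatives.

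*MOC1* was measured in the wild type at 1.06, 1.12, and 0.694 FPKM, from 34, 32, and 20 fragments. In *ssh1* it was at 0.625, 0.0993, and 0.837 FPKM, from 17, 3, and 28 fragments. Replicate 3 of *ssh1* was above replicate 3 of the wild type, so the genotypes overlapped, and replicate 2 stood apart with the 3 fragments. The ratio from the 86 and 48 fragments was 0.549 (95% interval 0.377 to 0.791), which does not include 1. The *ssh1* replicates, however, spread widely, with a coefficient of variation of 73.0%, and the log2 fold change was -0.39 (SE = 0.21, limma adjusted p = 0.244). Without *ssh1* replicate 2, the fragment ratio was 0.771 and the log2 fold change -0.17 (limma adjusted p = 0.442), and without *ssh1* replicate 3 the fragment ratio was 0.362.

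*LAX2* was lower than *LAX1* and *MOC1* in the wild type. It was at 0.314, 0.529, and 0.175 FPKM in the wild type and at 0.371, 0, and 0.225 FPKM in *ssh1*. These values rest on 4, 6, and 2 fragments in the wild type and on 4, 0, and 3 in *ssh1*. With 12 fragments against 7, the ratio of 0.574 had a 95% interval of 0.191 to 1.58, so that a difference was not detectable at this depth. The log2 fold change was -0.16 (SE = 0.15, limma adjusted p = 0.472). The fragment ratio was 0.351 without *ssh1* replicate 1 and 0.86 without *ssh1* replicate 2. The 0 of *ssh1* replicate 2 allows up to 3 fragments, or 0.25 FPKM, which is above the value of *ssh1* replicate 3.

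*FZP*, which acts after branching, was the lowest of the 7 genes in the wild type. It was at 0.0454, 0.051, and 0.101 FPKM in the wild type and at 0.107, 0, and 0.304 FPKM in *ssh1*. A single fragment lay behind each of the values of wild-type replicates 1 and 2, and 2 fragments behind that of replicate 3. In *ssh1* the numbers were 2, 0, and 7. The higher mean of *ssh1* (0.137 against 0.0658 FPKM, a ratio of 2.08) thus came from the 7 fragments of replicate 3. The fragment ratio was 2.21 with a 95% interval of 0.618 to 9.84, and it was 3.32 without *ssh1* replicate 2 and 0.779 without *ssh1* replicate 3. The log2 fold change of 0.09 (SE = 0.1, limma adjusted p = 0.568) turned to -0.02 without replicate 3 of *ssh1*.

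*APO1* was similarly low, although its partner *RFL/APO2* was not. It was at 0.0583, 0.262, and 0.13 FPKM in the wild type, from 1, 4, and 2 fragments. In *ssh1* it was at 0.0688, 0, and 0.223 FPKM, from 1, 0, and 4 fragments. The highest and the lowest values of the genotypes were thus interleaved, and the fragment ratio of 0.703 had a 95% interval of 0.176 to 2.57. The log2 fold change was -0.07 (SE = 0.1, limma adjusted p = 0.643). Without *ssh1* replicate 2 the fragment ratio was 1.05, without wild-type replicate 2 it was 1.12, and without *ssh1* replicate 3 it was 0.223.

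**Figure D3:**
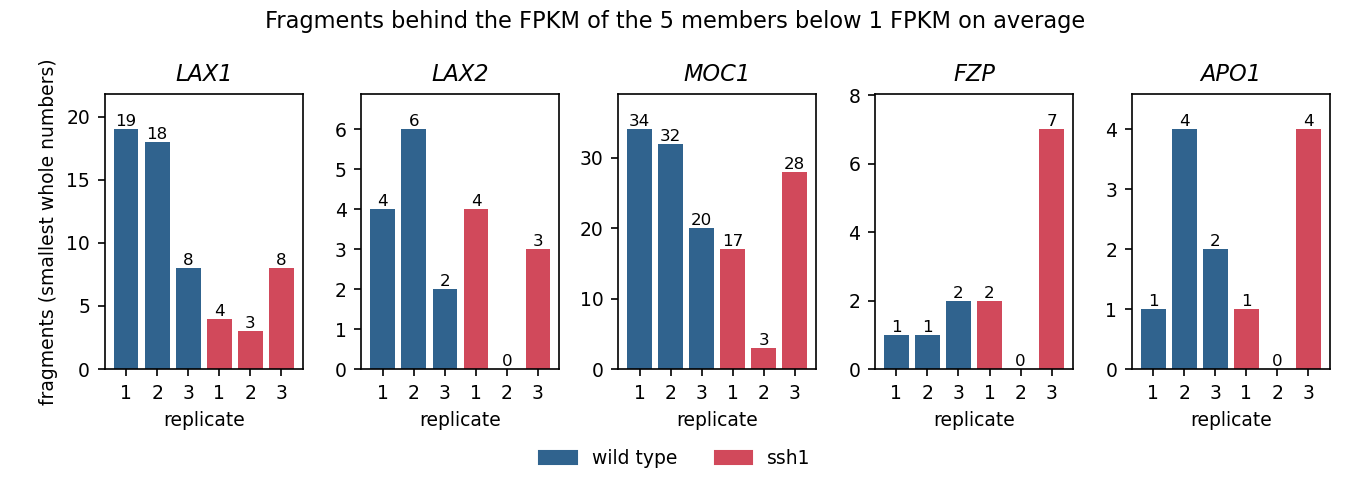
Fragments (y axis, a separate linear scale from 0 for each gene) recovered for the 5 genes below 1 FPKM in each replicate of the wild type and *ssh1* (x axis), with the number above each bar. *LAX1* had 19, 18, and 8 fragments against 4, 3, and 8, whereas *FZP* and *APO1* had no more than 7 in any library. *LAX2*, *FZP*, and *APO1* had 0 in *ssh1* replicate 2.

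The order of the 7 levels was the same for the top 2 genes in both genotypes. *DEP1* was 2.13 times *RFL/APO2* in the wild type and 2.2 times in *ssh1*, and *RFL/APO2* was more than 20 times the next gene in each, at a ratio of 22.9 to *LAX1* in the wild type and of 22.5 to *MOC1* in *ssh1*. Neither of these 2 steps overlapped between replicates. In the wild type, *LAX1* (1.10 FPKM) and *MOC1* (0.958 FPKM) came next with overlapping replicates, and both lay apart from *LAX2* (0.34 FPKM). The replicates of *LAX2* overlapped with those of *APO1*, and those of *APO1* with those of *FZP*. In *ssh1*, the order from *MOC1* (0.52 FPKM) over *LAX1* (0.356 FPKM), *LAX2* (0.199 FPKM), and *FZP* (0.137 FPKM) to *APO1* (0.0972 FPKM) held no neighbours without overlap.

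Ratios within a sample do not depend on the scaling between libraries apart from the added 1 FPKM, and 4 of them were compared. The log2 ratio of *LAX1* to *LAX2* was 0.81, 0.64, and 0.46 in the wild type and -0.05, 0.28, and 0.32 in *ssh1*. All *ssh1* values were lower, by 0.45 on average (two-sided p = 0.1 by an exact permutation test, which can give no smaller value, and 0.267 adjusted over the 4 ratios). However, *LAX2* was at 0 FPKM in *ssh1* replicate 2, so that the 0.28 there rests on *LAX1* and the added 1 FPKM. The separation of the genotypes in this ratio depends on that addition. The log2 ratio of *LAX1* to *MOC1* differed by -0.23 (p = 0.2 by the same exact permutation test) and that of *LAX2* to *MOC1* by 0.23 (p = 0.3 by the same exact permutation test), with overlapping replicates in both. The log2 ratio of *APO1* to *RFL/APO2* was -4.79, -4.71, and -3.85 in the wild type and -3.96, -2.00, and -3.84 in *ssh1* (exact permutation test, two-sided, p = 0.2). As *APO1* was near 0 throughout, this ratio follows *RFL/APO2*.

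The 7 genes shared their lowest sample, which the genotypes do not give, but by small margins in most of them. In each of them, *ssh1* replicate 2 was the lowest of the 6 samples, whereas the same was so for 32.9% of the tested genes and 11.3% of the expressed genes below 1 FPKM. Samples tied for the lowest value, as at 0 FPKM, were not counted, which lowers the share of genes below 1 FPKM most. Among those genes, each of the other samples was the lowest in 4.83% to 7.91%. Set against the next lowest sample, *ssh1* replicate 2 held 3 fragments against 4 for *LAX1* and 0 against 2 for *LAX2*. For *FZP* and for *APO1* it held 0 against 1. Differences this small are within counting error, and *DEP1* was at 24.5 against 26.0 FPKM. Replicate 2 stood far below the others only for *RFL/APO2* (3.0 against 15.3 FPKM) and *MOC1* (3 against 17 fragments). In the wild type, replicate 3 was the lowest of the 3 in 5 of the 7 genes, *FZP* and *APO1* being the exceptions. Replicate 3 was the lowest of the wild type in 35.6% of the tested genes and 29.1% of the expressed genes. *ssh1* replicate 2 had the lowest sum of FPKM of the 6 libraries (832551, against 883159 in wild-type replicate 3, the next lowest, and up to 978426) and the most locus IDs at 0 (31015, against 30321 to 30711), whereas its relative depth, 0.943, was within the range of the others. The part of these differences in the low values of replicate 2 was not tested. Without this replicate the mean FPKM of *ssh1* was below that of the wild type in 6 of the 7 genes, as it was in 57.5% of the expressed genes. The exception was *FZP*, and among the 6 *APO1* was at a log2 fold change of 0.0.

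Genes with the most similar course over the 6 samples were sought for the 2 well expressed genes, by the root mean square difference between profiles of log2(FPKM + 1) centred on their means. For *RFL/APO2* the nearest of 18536 genes was LOC_Os12g06780, at a difference of 0.113. It was at 8.01, 8.77, and 4.98 FPKM in the wild type and at 4.24, 0.266, and 5.29 FPKM in *ssh1*. For *DEP1* the nearest was LOC_Os03g64030, at 0.0577. It was at 62.7, 64.8, and 53.8 FPKM in the wild type and at 28.4, 26.9, and 28.0 FPKM in *ssh1*. Both loci were chosen for their likeness over these 6 samples, so that shared low replicates follow from the choice.

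The 7 genes were set beside 23 other loci that were listed from general knowledge as regulators of panicle branching, inflorescence phase, and spikelet identity, including *SNB* and *OsMADS15* (LOC_Os07g01820). The files pair no names with the other loci. Of the 23, 20 reached a mean of 1 FPKM and were tested. By the thresholds applied to the 7 genes, 1 rose and 1 fell, and the 1 that fell was *SNB*, the mutated gene itself. LOC_Os03g54160 was at 112 ± 17.7 FPKM in the wild type and rose to 244 ± 6.71 FPKM (SD, n = 3 each), by 1.12 on the log2 scale (SE = 0.12, limma adjusted p = 0.000918). *SNB* fell to 0.435 of its wild-type mean, by 1.11 on the log2 scale (SE = 0.11, limma adjusted p = 0.000725). Neither passed with any 1 replicate left out, without the filter, or with a replicate block. *OsMADS15*, a MADS-box gene, was at 244 ± 9.73 FPKM in the wild type and 228 ± 30.3 FPKM in *ssh1* (SD, n = 3 each), with an adjusted p of 0.45 from limma.

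At an adjusted p below 0.05 in limma, 3 of these 20 loci were higher in *ssh1*, 8 were lower, the mutated *SNB* among them, and 9 did not pass. At that limit 17.0% of all tested genes were higher and 28.0% lower. In the values as deposited, the median log2 fold change of the 20 loci was -0.40, against -0.14 over all tested genes. The summed level of the 23 loci went the other way, from 917 to 1040 FPKM in the wild type and from 1100 to 1150 FPKM in *ssh1*. After median-of-ratios scaling 5 of the 20 loci were higher and 6 lower, where 21.7% of all tested genes were higher and 19.2% lower. Under that scaling and at the stricter thresholds 2 of the 20 loci were higher and 0 lower, *SNB* having missed the fold-change limit at -0.98. In 9 of the 23 loci *ssh1* replicate 2 was the lowest sample.

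Marker lists, also assigned from general knowledge, were compared in the same samples. Of 6 loci listed for meristems, 4 were tested, and 3 were lower in *ssh1* at an adjusted p below 0.05 in limma and 0 higher. At that limit 28.0% of all tested genes were lower and 17.0% higher. The other tested meristem locus, LOC_Os01g40630, was at 7.57 FPKM in the wild type and 13.0 FPKM in *ssh1* (limma adjusted p = 0.0763). The summed level of the 6 meristem loci was 265 to 272 FPKM in the wild type and 132 to 148 FPKM in *ssh1*, with 1 locus at 0 in all samples. Most of this sum and of its fall came from LOC_Os03g51690 (means of 175 and 101 FPKM) and LOC_Os07g03770 (72.4 and 18.4 FPKM). For 10 anther and tapetum loci the sum was 82.4 to 106 FPKM in the wild type and 51.1 to 65.3 FPKM in *ssh1*, with 1 locus at 0 in all samples. Of these loci 2 of 5 tested were lower, where 28.0% of all tested genes were. For 6 photosynthesis loci, markers of green tissue, the sum was 208 to 321 FPKM in the wild type and 232 to 543 FPKM in *ssh1*. Of these loci 3 of 6 tested were higher, where 17.0% of all tested genes were. The photosynthesis sums overlapped, with *ssh1* replicate 2 at 232 FPKM, and LOC_Os01g52240 of that list had a log2 fold change of -0.78 (limma adjusted p = 0.0912). The sums of the meristem loci did not overlap between the genotypes, nor did those of the anther and tapetum loci. Neither did the levels of *DEP1* and *LAX1*. In 27.4% of the 30210 expressed genes, too, every *ssh1* replicate was below every wild-type replicate. The part of the lower meristem or anther and tapetum sums in the lower levels of *DEP1* and *LAX1* was not tested. In *ssh1* replicate 2 the meristem sum was 132 FPKM, against 135 and 148 FPKM in replicates 1 and 3, a smaller relative difference than that of *RFL/APO2* or *MOC1*. The largest part of this sum was LOC_Os03g51690, at 93.4, 101, and 109 FPKM in *ssh1* replicates 1 to 3. Replicate 2 of *ssh1* was the lowest of the 6 samples in 2 of the 6 meristem loci. These were LOC_Os07g03770 (10.8 FPKM, against 19.7 and 24.8 in *ssh1* replicates 1 and 3) and LOC_Os04g56780 (0.0969 FPKM, against 0.218 and 0.701).

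**Figure D4:**
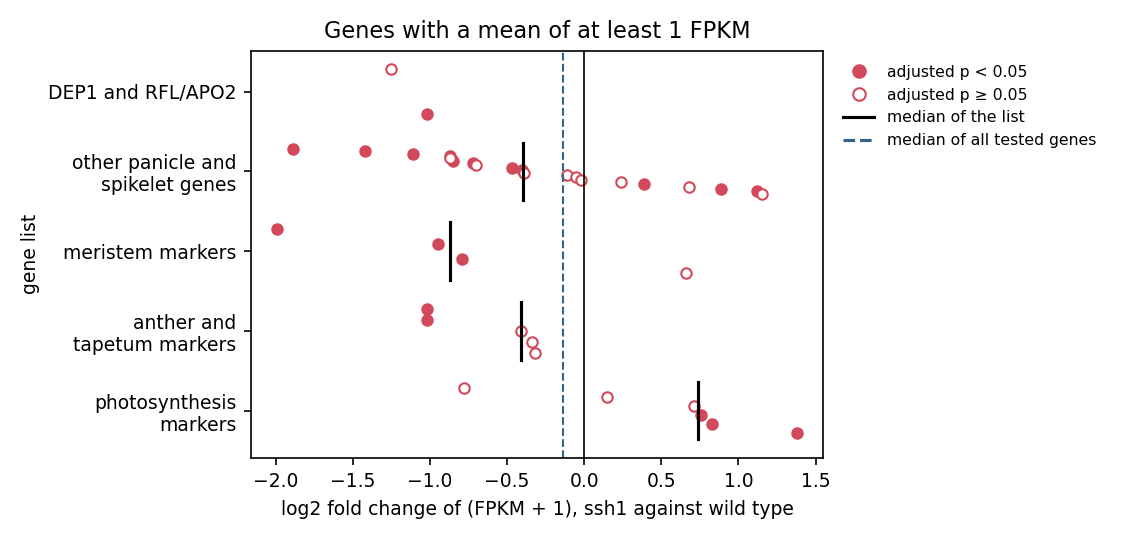
Log2 fold change in *ssh1* against the wild type, on log2(FPKM + 1) (x axis), of *DEP1* and *RFL/APO2* and of the tested loci of 4 lists (y axis, with points spread within a list for legibility). Filled points had an adjusted p below 0.05 in limma, vertical bars mark the median of a list, and the dashed line marks the median of all tested genes at -0.14. The 20 other panicle and spikelet loci lie on both sides of 0, and 3 of the 4 meristem loci lie below -0.7.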

How the data were processed

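RNA-seq values of 0- to 4-cm panicles were used, 3 replicates each of the wild type and *ssh1*, grouped by the sample labels. The authors mapped paired-end reads with TopHat2 to IRGSP-1.0 with the MSU7 annotation and deposited FPKM from Cuffdiff, 1 value per gene and replicate. Versions are not given in the sources used here. After 4 repeated locus IDs were left out, the 18537 genes averaging 1 FPKM or more were fitted with limma 3.58.1 (R 4.3.3, eBayes with a trend) on log2(FPKM + 1). The genotype was the only term, and the fold change and FDR thresholds were those of the study. Cuffdiff, which needs the reads, was not rerun, and the limma code was tested on simulated data. Genes below the filter were fitted over the 30210 genes above 0 in a sample.

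Relative depth was the most frequent ratio of values below 0.3 FPKM between libraries. Fragment numbers were the smallest whole numbers within a tolerance of 0.05. Intervals were exact (Poisson or Clopper-Pearson). The replicates are pools of different plants. The alternatives were another pseudocount, filter, scaling, threshold, or sample weighting, a replicate block, and each replicate left out, and for the fragment ratios the last was added after the data were seen.

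The 7 genes and the lists were chosen with earlier results of these data known. Named genes were these 7, *SNB*, listed loci past the thresholds (at most 3 in each direction), and the nearest profile of each tested member. *OsMADS15* and the named marker loci were added after their values were seen. The RefSeq table for assembly ASM3414082v1 matched 0 locus IDs and held 4 of the 7 gene names, so no sequence or coordinate is given.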

Additional observations from a re-analysis of the deposited data

How the results depend on the processing

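*DEP1* passed the thresholds when genes had to average 5 FPKM (-1.02) and with quantile normalization (-1.03), and at an adjusted p below 0.05 with or without the fold-change limit (-1.02 each), so that 1 of the 7 genes passed in each of these 4 settings and 0 in the others. With 1 replicate left out, 0 of the 7 passed, and the log2 fold changes were -1.14 to -0.96 (*DEP1*), -1.62 to -0.56 (*RFL/APO2*), -0.80 to -0.51 (*LAX1*), -0.54 to -0.17 (*MOC1*), -0.27 to -0.04 (*LAX2*), -0.15 to 0.0 (*APO1*), and -0.02 to 0.17 (*FZP*). The within-sample ratios then differed between genotypes by -0.54 to -0.34 (*LAX1* to *LAX2*), -0.37 to -0.15 (*LAX1* to *MOC1*), 0.13 to 0.36 (*LAX2* to *MOC1*), and 0.55 to 1.53 (*APO1* to *RFL/APO2*). With a pseudocount of 0.1 FPKM, *LAX1* was at -1.38 and *MOC1* at -1.02 on the log2 scale, neither past the thresholds.

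Of the other panicle and spikelet loci, 2 passed, against 0 without the filter, 0 with the replicate block, 1 with sample quality weights, 4 at an adjusted p below 0.05 with the fold-change limit, and 11 without it. The count was 0 to 0 with a replicate left out. Over all genes 947 passed, against 487 without the filter, 0 with the block, 2413 and 8341 at an adjusted p below 0.05 with and without the fold-change limit, and 66 to 790 with a replicate left out. The fits with a block or without a replicate have fewer residual degrees of freedom, and for the other settings the cause was not tested. With the replicate number as a block, *DEP1* had a log2 fold change of -1.02 (adjusted p = 0.0109 from limma). Deviations of same-numbered replicates correlated at -0.103, -0.0732, and -0.169 across genes, so the numbers do not pair the samples. Depth limits *LAX2*, *FZP*, and *APO1* most, with 12 fragments or fewer per genotype.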
